A study of Sus scrofa with 150 samples.

Results

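This account compares pig livers at the ends of a score made of 2 genes, PLIN2 and CPT1A. The log2 value of each gene was expressed in SDs from its mean over all 150 livers, the mean of both was the score, and the 30 livers with the highest score were set against the 30 with the lowest, so the livers were chosen by their measured PLIN2 and CPT1A values. These 60 livers came from a series of 150, with 90 livers in neither tail. They are called high livers and low livers below.

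Every liver, high or low, came from a commercial crossbred pig that the labels write as Pix(DLxDE), was taken at slaughter at a mean end weight of 110 kg, and was hybridised to 1 Affymetrix Porcine Genome Array. No pig was treated, and the labels name neither the time since the last meal nor sex, age, family or slaughter day. The high and low livers are therefore ranges of 1 population, and no group or treatment label sets them apart. Each pig also has a fat area over the back muscle (cm2) and a drip loss, the percentage of its weight that a hung piece of this muscle lost as fluid.

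PLIN2 coats the small lipid droplets of hepatocytes, and its level follows how much fat the cell holds. CPT1A, at the outer mitochondrial membrane, makes the acylcarnitines by which long-chain fatty acids enter the mitochondrion, and is the controlled step of their oxidation. Both are targets of PPARA, a nuclear receptor that fatty acids activate in liver, and in rodents both rise when fasting sends fatty acids from fat tissue to the liver.

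PLIN2 ran from 8.46 to 11.75 in high livers, with a median of 9.24, against 6.02 to 7.76 in low livers, with a median of 6.70, all on the log2 scale of the deposited values. Its means were 9.35 ± 0.748 in high and 6.74 ± 0.395 in low livers (SD, n = 30 each), 6.09-fold apart. CPT1A ran from 10.11 to 11.86 in high livers, with a median of 10.86, against 7.73 to 9.49 in low livers, with a median of 8.94. Neither gene's groups overlapped, which is how the livers were chosen, so these values describe the choice and carry no test. The CPT1A means were 10.92 ± 0.422 in high and 8.90 ± 0.36 in low livers (SD, n = 30 each), 4.04-fold apart.

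The score had no gap at its limits. The last liver inside the high tail scored 0.837, with PLIN2 at 8.85 and CPT1A at 10.38, and the next liver outside it scored 0.764, with 7.99 and 10.89. The first liver inside the low tail scored -0.762, with 6.71 and 9.49, and its neighbour outside scored -0.725, with 6.72 and 9.54. Over the 150 livers PLIN2 and CPT1A correlated at r = 0.717 and rho = 0.734, as a description, and both values come from the same array. Within the high livers r was 0.358 and within the low livers it was -0.513, where the sum of both genes had been held low by the choice.

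**Figure D1:**
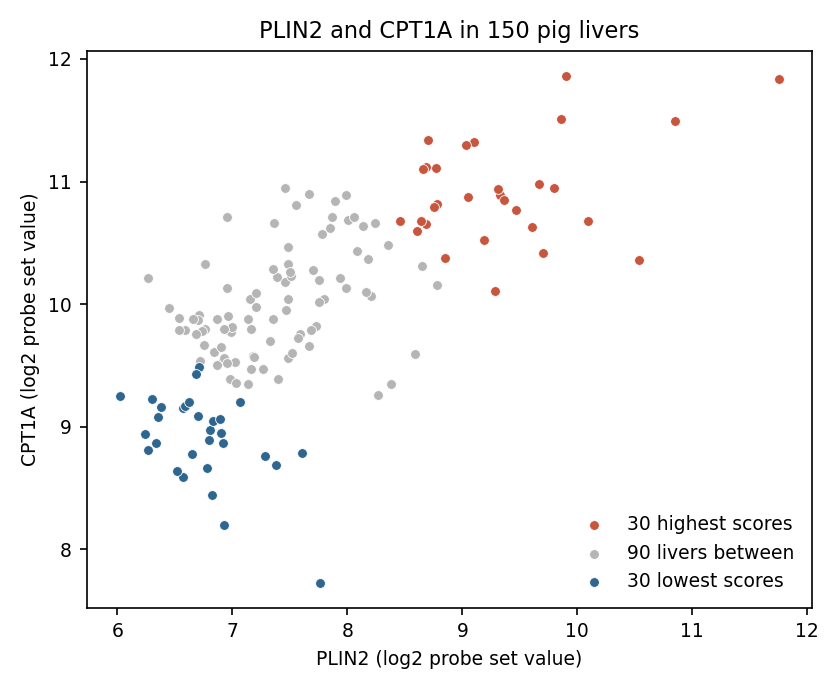
PLIN2 (horizontal axis) against CPT1A (vertical axis), both as log2 probe set values, 1 point per liver, with the 30 high livers, the 90 between and the 30 low livers in separate colours. High livers spread more along PLIN2 (SD 0.748) than along CPT1A (SD 0.422), and low livers about equally along both (SD 0.395 and 0.36).

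The genes did not weigh equally in the tails. Of the 30 high livers, 28 were also among the 30 highest by PLIN2 alone and 21 among the 30 highest by CPT1A alone. Of the 30 low livers, 16 were among the 30 lowest by PLIN2 and 28 among the 30 lowest by CPT1A. No liver was among the 30 highest by one gene and the 30 lowest by the other. In tails cut by PLIN2 alone CPT1A differed by 1.46 on the log2 scale, and in tails cut by CPT1A alone PLIN2 differed by 2.08.

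The name "fasting-like" was set beside 17 measured genes of a fasting panel, which does not hold PLIN2 or CPT1A. The panel was chosen with earlier results of these data known, so it is no independent check. Of 13 genes known, mainly from rodents, to rise in the fasted liver, 8 were higher in high livers, 0 were lower and 5 did not pass, with a median log2 difference of 0.34. Of 4 lipid synthesis genes known to fall, 2 were lower and 2 did not pass. For comparison, 15.7% of all 6763 genes with a single symbol passed the test in either direction, 10.9% higher and 4.88% lower, and their median log2 difference was 0.008. The same shares are the background for every list count below.

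The 5 genes of the panel that did not pass with the known risers are named for their part in the fasting response. PDK4, which shuts pyruvate out of the mitochondrion, had a log2 difference of 0.24 (SE 0.2, adjusted p = 0.537), and a second PDK4 probe set 0.18 (adjusted p = 0.655). CPT2, the inner-membrane partner of CPT1A, differed by 0.02, ACADM, a medium-chain acyl-CoA dehydrogenase, by -0.13, and PPARGC1A, a co-activator of gluconeogenesis genes, by -0.25, with adjusted p of 0.854, 0.648 and 0.416. IGFBP1, which insulin represses, differed by -0.13 on one probe set (adjusted p = 0.0611) and by 0.73 on its brighter one (adjusted p = 0.103). Part of the panel moved, no label gives a feeding state, and the livers are named here by their PLIN2 and CPT1A level.

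Each of the other 23997 probe sets was compared between high and low livers with limma, and passed where its p, adjusted over all of them by Benjamini-Hochberg, lay under 0.05. Of these, 2383 passed, or 9.93%, with 1523 higher (6.35%) and 860 lower (3.58%) in high livers. At an unadjusted p under 0.05 there were 5230, the 2383 included. Of the calls, 1276 carried 1 gene symbol and the other 1107 could not be given a single gene. Only 19 genes, 0.281% of the genes, passed and differed by over 1 log2 unit, 11 of them higher. PPIF and 1 unnamed probe set were the only ones whose groups did not overlap, 0.00833% of those tested. With the block of 100 consecutive title numbers as a term the count was 1273, with 782 higher, and with fat area and drip loss as covariates it was 1506, with 988 higher. What the title numbers stand for is not given in the sources used here. All values share an array with PLIN2 and CPT1A, so anything that shifts probe sets together on an array enters both the choice and the test.

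The genes furthest apart upward were MFSD2A and APOA4. MFSD2A, a transporter of lysophospholipids that carry long-chain fatty acids and a gene that fasting induces in mouse liver, ran from 7.63 to 11.49 with a median of 9.75 in high livers, and from 5.32 to 9.05 with a median of 6.54 in low livers. In 24 of the 30 high livers it lay above every low liver. The difference was 3.02 on the log2 scale (SE 0.234, 8.12-fold, adjusted p = 9.4e-16).

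APOA4, an apolipoprotein that liver and intestine put on triglyceride-rich particles, ran from 12.13 to 13.76 with a median of 13.20 in high livers, and from 6.80 to 12.65 with a median of 10.50 in low livers. High livers were tightly grouped near the top of its range while low livers were scattered, with SDs of 0.382 and 1.49 (n = 30 each). It was 7.21-fold higher in high livers, a log2 difference of 2.85 (SE 0.269, adjusted p = 2.67e-12).

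PPIF, cyclophilin D, which governs the permeability transition pore of mitochondria, ran from 10.55 to 12.08 in high livers, with a median of 11.15, and from 9.25 to 10.40 in low livers, with a median of 10.05. The lowest high liver lay above the highest low liver. The log2 difference was 1.22 (SE 0.0867, adjusted p = 1.93e-17). The unnamed probe set ran from 8.16 to 10.43 in high and from 6.63 to 8.15 in low livers.

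SLC25A30, a carrier of the inner mitochondrial membrane, ran from 7.22 to 10.06 with a median of 8.48 in high livers and from 5.47 to 7.28 with a median of 6.44 in low livers, and was 3.97-fold higher (adjusted p = 1.8e-17). In 28 of 30 high livers it lay above every low liver. PMM1, a phosphomannomutase, was 3.36-fold higher, and ABCD3, which brings fatty acyl-CoA into peroxisomes, 2.52-fold higher, with all 3 ABCD3 probe sets passing. SLC25A33, a mitochondrial carrier of pyrimidine nucleotides, was 2.32-fold higher on one probe set, while a dimmer one differed by 0.02 (adjusted p = 0.899). LITAF, a protein of endosomes, was 2-fold higher, and of its other 3 probe sets 1 passed, at 0.98, and 2 did not, at -0.02 and -0.09. KLF11, a zinc finger transcription factor, was 1.94-fold higher, and its second probe set, at 0.85, passed too. ZFAND2A, which stress induces and which binds the proteasome, was 2.07-fold higher (adjusted p = 0.0161), with high livers between 4.09 and 11.28 and low livers between 4.35 and 9.25. It no longer passed with 15 livers per tail, with tails by CPT1A alone, with the title block or with the traits.

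The largest downward difference was that of CYP7A1, which catalyses the first and limiting step from cholesterol to bile acids. It ran from 4.09, the lowest value in the table, to 9.24 with a median of 6.74 in high livers, and from 6.23 to 10.91 with a median of 9.09 in low livers. In 12 high livers it lay below every low liver, and in 1 it lay above the low median. The log2 difference was -2.36 (SE 0.326, adjusted p = 2.27e-07), a level 5.14-fold lower in high livers, and only 1 high liver lay at the floor.

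CA3, carbonic anhydrase III, ran from 4.24 to 9.06 with a median of 7.73 in high livers, and from 7.83 to 11.21 with a median of 9.70 in low livers. It was 4.71-fold lower in high livers (log2 difference -2.23, adjusted p = 2.89e-09), and its second probe set gave -2.25. CA3 is abundant in skeletal muscle and was on the list of muscle markers. The other 8 muscle markers measured did not pass and lay between -0.09 and 0.09, and MYH2, TNNT3, MYL1 and MYLPF had medians under 5 in both groups. NREP was 2.67-fold lower in high livers (adjusted p = 1.23e-10), with 17 high livers below every low liver. MBNL3, a splicing regulator, and ACSL4, which activates arachidonic acid, were 1.88-fold and 1.92-fold lower, and neither passed with 15 livers per tail or with tails by CPT1A alone.

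**Figure D2:**
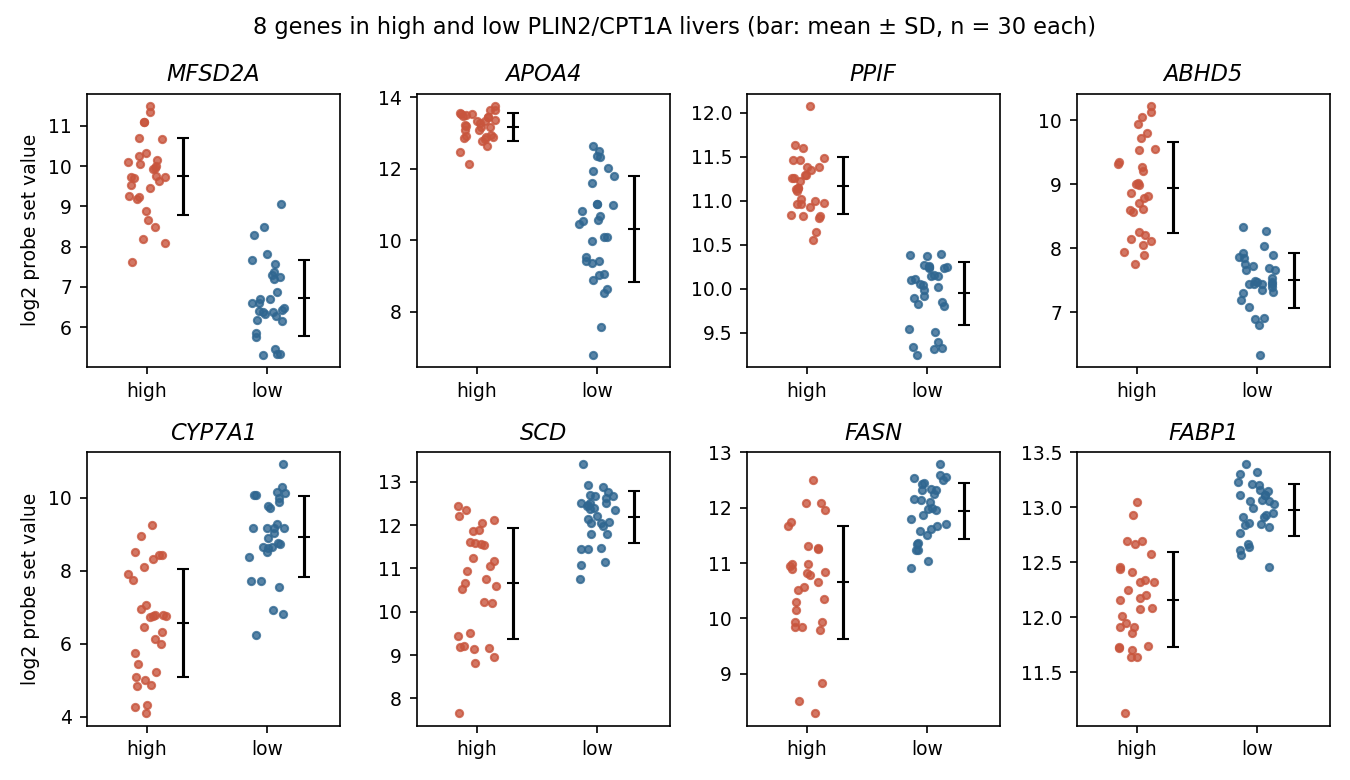
Log2 probe set values (vertical axes, 1 scale per gene) of 8 genes in high and low livers, 1 point per liver, with the mean ± SD of 30 livers beside each group. PPIF separates the groups fully, APOA4 is narrow in high and wide in low livers (SD 0.382 and 1.49), and SCD and FASN are wide in high and narrow in low livers.

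CPT1A feeds fatty acid oxidation. Of 22 other measured genes of mitochondrial and peroxisomal oxidation, 5 were higher in high livers, 2 were lower and 15 did not pass, with a median log2 difference of 0.03. SLC25A20, the carrier that exchanges acylcarnitine into the matrix right after CPT1A, ran from 8.51 to 10.10 with a median of 9.41 in high livers and from 7.83 to 9.57 with a median of 8.51 in low livers. It was 1.62-fold higher (adjusted p = 1.26e-06), and 29 of 30 high livers lay above the low median.

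ACSL1, which activates long-chain fatty acids, was 1.47-fold higher. ACADVL, the first dehydrogenase of the very-long-chain spiral, was 1.42-fold higher, with 18 high livers above every low liver, and its second probe set passed at 0.54. CRAT, which shuttles acetyl groups onto carnitine, was 1.31-fold higher, and HADHA, the alpha subunit of the trifunctional protein, 1.30-fold. ECI1, which isomerises unsaturated chains, and ETFA, which takes the electrons from the dehydrogenases, were lower by log2 differences of -0.23 and -0.31 (adjusted p = 0.00699 and 0.0465), both named after their values were seen. BDH1, the last step of ketone body synthesis, was 1.23-fold higher (adjusted p = 0.00481), a call lost with 15 livers per tail, with CPT1A alone and with the title block.

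Other PPARA targets and the receptor itself gave a mixed picture. Of 13 measured, 5 were higher and 1 was lower, with a median of 0.11. ANGPTL4, a secreted inhibitor of lipoprotein lipase, ran from 7.65 to 9.70 with a median of 8.83 in high livers and from 7.15 to 9.52 with a median of 8.18 in low livers, 1.44-fold higher, and both its probe sets passed. PPARA was 1.27-fold higher on one probe set and 0.03 apart, on the log2 scale, on a dimmer one, and its call was lost with 15 livers per tail and with the title block. TXNIP, which restrains glucose uptake, was 1.21-fold higher, a call lost in 4 of 18 alternatives.

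FABP1, the main fatty acid carrier of the hepatocyte cytosol and a PPARA target in rodents, went the other way. It ran from 11.13 to 13.05 with a median of 12.17 in high livers, and from 12.46 to 13.39 with a median of 13.01 in low livers. In 23 of 30 high livers it lay below every low liver. It was 1.76-fold lower in high livers (log2 difference -0.82, SE 0.0874, adjusted p = 1.89e-10). The number of targets that were higher was 2 with 15 livers per tail, with 50 livers per tail and with the title block.

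Transcripts for proteins of the lipid droplet, the compartment that PLIN2 coats, were higher in 5 of 12 cases and lower in 1, with a median of 0.13. ABHD5, which frees triglyceride by activating the lipase PNPLA2, ran from 7.76 to 10.22 with a median of 8.93 in high livers and from 6.34 to 8.33 with a median of 7.48 in low livers. All high livers lay above the low median, and the difference was 2.72-fold (adjusted p = 4.15e-11). PLIN3, a perilipin that also covers small droplets, was 1.73-fold higher, again with every high liver above the low median. HILPDA, a droplet protein that inhibits PNPLA2, was 1.59-fold higher on one probe set and passed on the other, at 0.57.

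PNPLA2 itself was 1.27-fold higher (adjusted p = 0.0297), while a second probe set differed by 0.06, and the call was lost in 6 of 18 alternatives. CIDEB, which helps to load lipoproteins, was higher by 0.29, just under the threshold (adjusted p = 0.049, named after its values were seen). Its mean was 10.97 in high, 10.65 in middle and 10.68 in low livers. PNPLA3, a droplet enzyme that insulin and lipogenic feeding raise in rodents, was 2.28-fold lower in high livers (adjusted p = 7.7e-05).

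Transcripts of lipid synthesis genes were lower in high livers wherever a member passed. Of 17 measured genes of fatty acid and triglyceride synthesis, 0 were higher and 6 were lower, with a median of -0.22. Passed or not, 12 differences were negative and 5 positive. SCD, which puts the double bond into newly made fatty acids, ran from 7.66 to 12.45 with a median of 10.85 in high livers and from 10.75 to 13.40 with a median of 12.36 in low livers. In 14 high livers it lay below every low liver, others lay well inside the low range, and the mean was 2.89-fold lower (log2 difference -1.53, adjusted p = 7.06e-06).

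FASN, fatty acid synthase, ran from 8.29 to 12.50 with a median of 10.80 in high livers and from 10.92 to 12.78 with a median of 11.98 in low livers, 2.44-fold lower (adjusted p = 3.29e-06). In 18 high livers it lay below all low livers. Of its other 3 probe sets, 2 passed at -0.97 and -0.55 and the dimmest, at -0.08, did not. ACSS2, which makes acetyl-CoA from acetate, was 1.83-fold lower on one probe set, and its second one passed at -0.83. GPAM, which starts triglyceride assembly, and DGAT2, which ends it, were lower by log2 differences of -0.76 and -0.35 (both named after their values were seen). ACACA, the first step of fatty acid synthesis, differed by -0.31 (adjusted p = 0.0544), and SREBF1, the transcription factor of these enzymes, by -0.10 (adjusted p = 0.347). INSIG1, also on the list, differed the other way, by 0.57, and did not pass (adjusted p = 0.0618, chosen after its values were seen). Between 0 and 2 genes of the list were higher over the 18 alternatives, and between 5 and 10 were lower.

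Of 8 measured genes of cholesterol synthesis and uptake, 5 were lower in high livers, 0 were higher and 3 did not pass, with a median of -0.58. HMGCS1, which makes the precursor of mevalonate, ran from 5.70 to 9.84 with a median of 7.61 in high livers and from 6.37 to 10.97 with a median of 9.02 in low livers. Its ranges overlapped, 28 of 30 high livers lay below the low median, and it was 2.37-fold lower (adjusted p = 0.00047). FDFT1, squalene synthase, was 1.81-fold lower, with 13 high livers below every low liver. MSMO1, which removes methyl groups from sterols, was 1.63-fold lower on its brightest probe set and passed on all 3, and SQLE, squalene epoxidase, was 1.59-fold lower. SC5D, a later desaturase, was lower by a log2 difference of -0.49 (named after its values were seen). With 15 livers per tail, HMGCS1 and SQLE no longer passed and 2 genes of the list did.

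**Figure D3:**
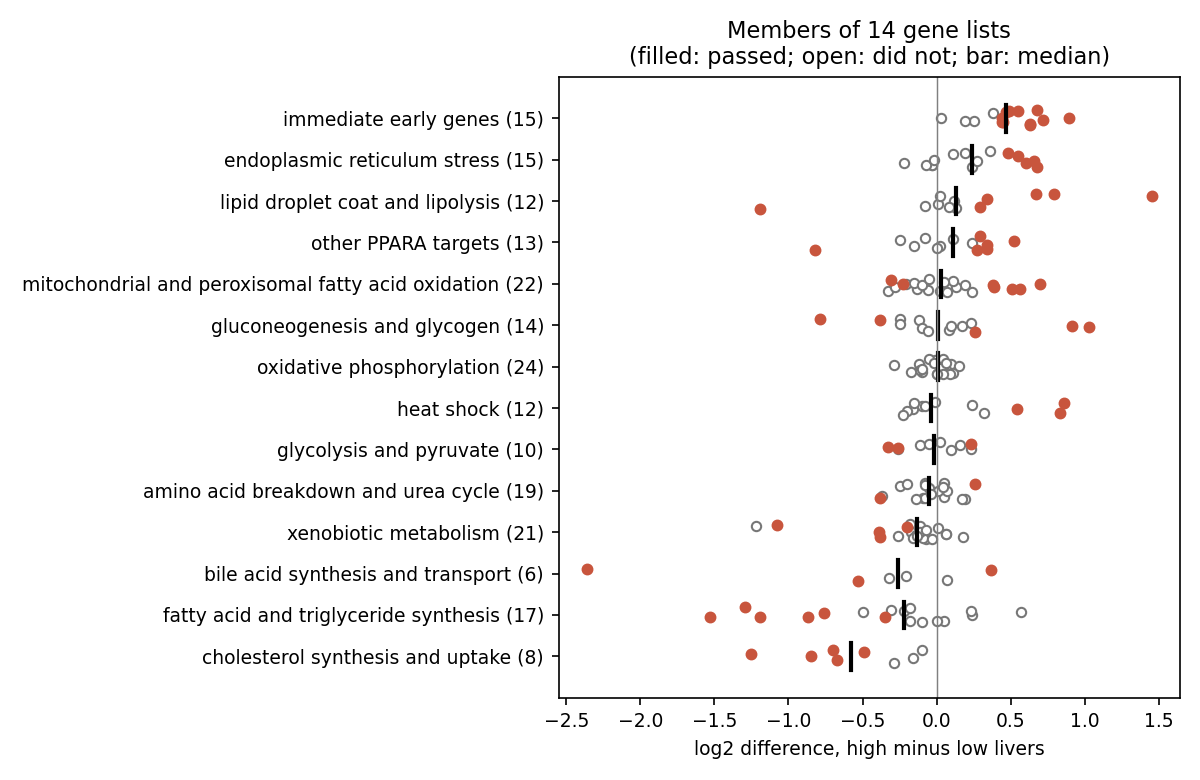
Log2 difference of high minus low livers (horizontal axis) for the members of 14 gene lists (rows, number measured in brackets), 1 point per gene, filled where it passed, with a bar at the list's median. Cholesterol synthesis has the lowest median, -0.58, immediate early genes the highest, 0.47, and oxidative phosphorylation has no filled point.

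Of 6 measured genes of bile acid synthesis and transport, CYP7A1 included, 2 were lower and 1 was higher, with a median of -0.26. ABCB11, the pump that exports bile salts, was 1.44-fold lower on one probe set (adjusted p = 0.0217), and 0.12 lower without passing on a dimmer one. That call was lost in 5 of 18 alternatives. ABCG8, one of the sterol exporters into bile, was 1.30-fold higher, a call lost with 50 livers per tail, with tails by PLIN2 alone and with the title block. CYP8B1, the enzyme that shapes cholic acid, had a log2 difference of 0.07 and did not pass (chosen after its values were seen).

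Among 21 measured genes of xenobiotic metabolism 4 were lower and 0 higher, with a median of -0.13. CYP1A1, the classic target of the aryl hydrocarbon receptor, ran from 5.59 to 11.34 with a median of 8.34 in high livers and from 8.01 to 11.08 with a median of 9.48 in low livers. It was 2.11-fold lower in high livers (adjusted p = 0.00316), and the highest value of all was that of a high liver. CYP3A39, FMO1 and GSTA1, abundant oxidising and conjugating enzymes, were 1.31-fold, 1.30-fold and 1.15-fold lower. Each of the 4 was lost in some alternatives: CYP1A1 with 15 livers per tail, with tails by PLIN2 alone and with the traits, CYP3A39 with 15 livers per tail and with CPT1A alone, FMO1 in those 2 and with the title block and the traits, and GSTA1 with array medians subtracted, without the arrays that stand apart and with the traits. Over the 18 alternatives between 1 and 4 genes of the list were lower and between 0 and 1 higher. Among all genes with a single symbol 15.7% passed in either direction and 4.88% lower. The count of 4 in 21 is near the first of these shares and above the second.

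PC and PCK1, the enzymes by which pyruvate enters gluconeogenesis, were both higher in high livers. Of 14 measured genes of gluconeogenesis and glycogen, 3 were higher and 2 lower, with a median of 0.01. PC, pyruvate carboxylase, ran from 9.57 to 11.66 with a median of 10.54 in high livers and from 8.73 to 10.12 with a median of 9.54 in low livers, 2.05-fold higher (adjusted p = 1.89e-10), with 24 high livers above every low liver. PCK1, which turns oxaloacetate into phosphoenolpyruvate in the cytosol, ran from 11.46 to 13.06 with a median of 12.72 in high livers and from 9.24 to 12.87 with a median of 11.80 in low livers. It was 1.88-fold higher (adjusted p = 1.8e-05), and the low livers reached further down. FBP1, a later enzyme of the same path, was higher by 0.26 on the log2 scale (named after its values were seen).

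PPP1R3B, which brings a phosphatase to glycogen and favours its storage, was 1.73-fold lower in high livers (adjusted p = 0.00417), and GPT, alanine aminotransferase, 1.30-fold lower, a call lost with 15 livers per tail, with PLIN2 alone and with the traits. Of 10 glycolysis genes 1 was higher and 2 were lower. GAPDH was counted as lower on 1 of 5 probe sets, while its 2 brightest differed by -0.07 and -0.04 and did not pass. Of 19 amino acid breakdown and urea cycle genes 1 was higher, BCKDHA of branched-chain oxidation at 1.20-fold, and 1 was lower, the same GPT, and BCKDHA was lost with 15 livers per tail, with CPT1A alone and with the title block. Among all genes with a single symbol 15.7% passed in either direction, a larger share than among these 19.

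Immediate early genes, which cells transcribe within minutes of a stimulus, had the largest share of calls of the lists counted here. Of 15 measured, 11 were higher in high livers and 0 lower, with a median of 0.47, and all 15 differences were positive. ATF3, a stress-induced repressor, ran from 5.39 to 9.54 with a median of 6.93 in high livers and from 5.48 to 7.80 with a median of 6.06 in low livers, 1.85-fold higher (adjusted p = 0.000191). The lowest value belonged to a high liver, although 28 high livers lay above the low median. BTG2, ZFP36 and JUN were 1.65-fold, 1.61-fold and 1.55-fold higher. Between 7 and 13 of the genes were higher over the 18 alternatives, fewest with tails by CPT1A alone.

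Of 15 genes of the stress response of the endoplasmic reticulum, 5 were higher and 0 lower, with a median of 0.24. XBP1, its main transcription factor, ran from 11.28 to 12.40 with a median of 11.60 in high livers and from 10.63 to 11.51 with a median of 11.08 in low livers, 1.47-fold higher (adjusted p = 1.12e-09), with 21 high livers above all low livers. MANF, HYOU1 and DNAJB9, which it and its partners induce, were 1.60-fold, 1.58-fold and 1.52-fold higher. The abundant chaperone HSPA5 had a log2 difference of 0.36 and did not pass (chosen after its values were seen). Of 12 heat shock genes 3 were higher, BAG3 and DNAJB1 at 1.82-fold and 1.78-fold and HSPA8 on 1 of its 4 probe sets at 1.45-fold, and the median of the list was -0.04. HSPA8 and MANF were lost with the traits.

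Of 13 genes of ATF4 and the amino acid response 3 were higher and 1 lower. ATF4 itself was 1.35-fold higher and CEBPB, an early partner of liver stress and fasting programmes, 1.30-fold, while PSAT1, of serine synthesis, was 1.37-fold lower, and the calls of CEBPB and PSAT1 were lost with the traits. Among 14 hypoxia genes 3 were higher, with HMOX1, heme oxygenase, at 1.40-fold. VEGFA was counted as higher on a dim probe set at 1.28-fold, while its 2 brighter ones, at -0.11 and 0.28, did not pass. GABARAPL1 and MAP1LC3B, ubiquitin-like proteins of the autophagosome, were 1.26-fold and 1.15-fold higher, and NPC1, which moves cholesterol out of lysosomes, 1.25-fold lower, among 17 genes of that list. The share of calls among these 17 is near the 15.7% of all genes that passed in either direction, and that of 3 in 14 hypoxia genes is little above it. MAP1LC3B and NPC1 were lost with PLIN2 alone and with the title block. Dimmer probe sets of BDH1, DNAJB9, MAP1LC3B, GSTA1, CD14 and SAA2 did not pass. For GLUL a dimmer probe set passed at -0.61, and the dimmest differed by 0.05 and did not pass.

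Of 16 glucocorticoid response genes 2 were higher and 2 lower, with TSC22D3, the glucocorticoid-induced leucine zipper, 1.46-fold lower and GLUL, glutamine synthetase, 1.36-fold lower in high livers. TSC22D3 was lost with the title block, and GLUL with 15 livers per tail and without the arrays that stand apart. DUSP1, which is also an immediate early gene, was 1.39-fold higher. Of 14 genes of the insulin and growth hormone axis 0 were higher and 2 lower, GHR, the growth hormone receptor, at 1.44-fold and SESN1 at 1.23-fold, and both calls were lost with 15 livers per tail, with CPT1A alone and with the title block. Over all genes with a single symbol 15.7% passed in either direction and 4.88% lower. The count of 2 in 14 is near the first of these shares.

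Of 7 measured clock genes 2 were higher and 1 was lower, with a median of 0.10. NFIL3, a clock-linked repressor, ran from 8.15 to 10.12 with a median of 9.06 in high livers and from 7.31 to 9.79 with a median of 8.20 in low livers, 1.70-fold higher (adjusted p = 1.68e-05). DBP, which binds the same sites as an activator, was 1.57-fold lower in high livers (adjusted p = 0.00163), and 29 of 30 high livers lay below the low median. ARNTL, a core clock factor, was 1.32-fold higher (adjusted p = 0.0325), a call lost with the title block, with tails by CPT1A alone, with EIF1AY and with the traits, and DBP was lost with the traits. The labels do not give the hour of slaughter, so its part in these 3 differences was not tested.

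Of 19 lipoprotein genes 3 were higher and 3 lower, APOA4 and FABP1 by far the most. LCAT, which esterifies the cholesterol of HDL, was 1.24-fold higher, and APOA2, a structural protein of HDL, 1.19-fold lower. LCAT was lost with 15 livers per tail, with CPT1A alone and with the title block, and APOA2 in 5 of 18 alternatives. Of 17 acute phase genes 3 were higher and 0 lower, with CRP at 1.52-fold (adjusted p = 0.0356), SAA2 at 1.16-fold and CD14 at 1.23-fold. CRP was lost in 6 of the 18 alternatives and SAA2 in 8. PSMA5 and PSMD2 of the proteasome were 1.30-fold and 1.12-fold higher among 26 measured subunits, and both calls were lost with 15 livers per tail, with the title block and with the traits. For comparison, 15.7% of all genes with a single symbol passed in either direction and 10.9% higher. The acute phase count is near the first share, and the proteasome count is below both.

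With limma, no member passed in either direction among 24 genes of oxidative phosphorylation, 17 of the interferon response and 16 of the cell cycle. Over the alternatives up to 1 gene of oxidative phosphorylation, 2 of the interferon response and 3 of the cell cycle passed in a direction. NDUFS3 of the first list and TOP2A, CCNA2, CCNB2, AURKA and UBE2C of the last had medians under 5 in both groups. The median log2 difference of the respiratory chain genes was 0.01, while 2 mitochondrial carriers, SLC25A30 and SLC25A33, were among the 12 genes furthest up.

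None of 9 measured hepatocyte markers passed, and their mean level ran from 12.84 to 13.21 in high and from 12.78 to 13.19 in low livers. In bulk tissue fewer cells of a type and less RNA per cell cannot be told apart. Likewise none passed among 10 markers of T and NK cells, 2 of B cells, 8 of endothelium, 10 of stellate cells, 8 of bile ducts, 4 of red blood cells and 4 of exocrine pancreas. Several of these were dim. CD4, CD79B, LUM, SOX9, CFTR, CDH6, CPB1 and CELA2A had medians under 5 in both groups, so a difference in them could be missed. Up to 1 marker each of T and NK cells, stellate cells and bile ducts passed over the alternatives. CD14 passed as 1 of 8 macrophage markers, whose mean ran from 8.27 to 8.98 in high and from 8.08 to 8.94 in low livers, and S100A9 as 1 of 3 neutrophil markers, 1.37-fold higher (adjusted p = 0.0386) and lost in 8 of 18 alternatives. The adipocyte list, whose LEP and RETN had medians under 5 in both groups, had PPARG alone as a call, 1.12-fold lower in high livers and lost in 6 of 17 alternatives.

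No array measure passed between the groups. Array medians were 5.93 ± 0.0602 in high and 5.95 ± 0.062 in low livers (SD, n = 30 each), a difference of -0.0157 (95% interval -0.0466 to 0.0152). The 3 prime minus 5 prime difference of GAPDH, a sign of RNA integrity, was 0.889 ± 0.219 in high and 0.916 ± 0.284 in low livers. Of 13 arrays in the series whose correlation with the others was unusually low, 2 were high livers and 2 were low livers. The adjusted permutation p of these and the other array measures, over a family of 9, lay between 0.758 and 0.989.

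The 90 livers between the tails, whose arrays were not used in the comparison, gave a second reading. In them the slope of each probe set on the score was fitted with limma, in log2 units per SD of the score, and 0.85% of the probe sets passed, 159 with a positive slope (0.663%) and 45 with a negative one (0.188%). Of the calls of the tails 7.85% passed here too, and of the calls here 91.7% had passed in the tails, 187 probe sets that all kept their direction. Of all calls of the tails 93.9% had the same sign in the middle livers, against 59.5% of the probe sets not called.

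The genes with the largest differences held their sign. All 24 of the 12 highest and 12 lowest had it, and 15 passed again, 9 higher and 6 lower. PPIF had a slope of 0.55 (SE 0.0575, adjusted p = 4.05e-11), SLC25A30 of 0.93 (adjusted p = 3.86e-08) and ABHD5 of 0.79 (adjusted p = 3.09e-07). CA3 had a slope of -0.96 (adjusted p = 0.00142), FASN of -0.57 (adjusted p = 0.00443) and PCK1 of 0.56 (adjusted p = 0.00998). SCD, at -0.44, and CYP7A1, at -0.80, did not pass (adjusted p = 0.208 and 0.161). No immediate early gene passed in the middle livers, where the median slope of the list was 0.16. Of the 17 measured genes of the fasting panel, 2 passed there with a positive slope and 1 with a negative one.

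**Figure D4:**
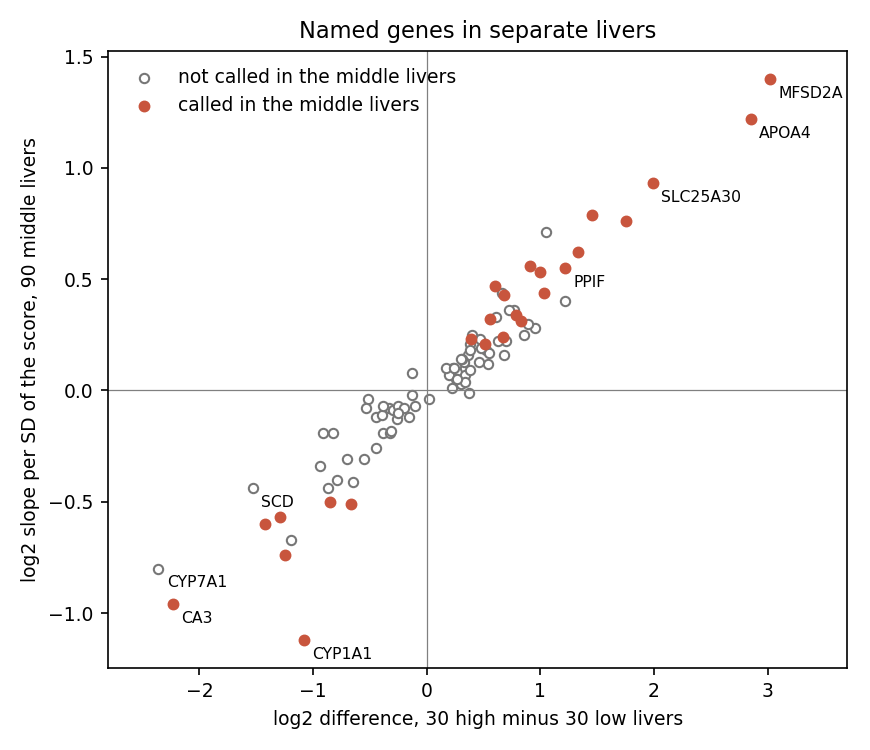
For the named genes, the log2 difference of high minus low livers (horizontal axis) against the log2 slope per SD of the score in the 90 livers between (vertical axis), filled where the slope passed. Of the 88 called genes 87 have the same sign on both axes, with MFSD2A (3.02 and 1.40) at the upper end. The ratio of slope to difference varies: CYP1A1 has the lowest slope (-1.08 and -1.12), below CA3 (-2.23 and -0.96) and CYP7A1 (-2.36 and -0.80).

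The middle livers also show where along the score a gene differed, as means without a test. CYP7A1 averaged 6.57 in high, 8.53 in middle and 8.93 in low livers, so that most of its difference lay between the high and the middle livers. CYP1A1 averaged 8.44 in high, 8.44 in middle and 9.52 in low livers, so that its difference lay between the middle and the low livers. APOA4, at 13.17, 12.05 and 10.32, and MFSD2A, at 9.74, 8.50 and 6.72, stepped on both sides.

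Over all 150 livers, the probe sets most like the score were PPIF at r = 0.853, SLC25A30 at 0.8, PMM1 at 0.788, ABHD5 at 0.766 and 1 unnamed probe set at 0.749. The most opposed were 1 unnamed probe set at -0.641, FABP1 at -0.64, CA3 at -0.629, NREP at -0.626 and FASN at -0.625. These are descriptions, since both quantities come from the same arrays.

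High livers came from pigs with less back fat. Fat area ran from 8.1 to 18.8 cm2 with a median of 13.1 in pigs with high livers, and from 10 to 26.7 cm2 with a median of 15.95 in pigs with low livers. The ranges overlapped over most of their length, and no high liver came from a pig with more than 18.8 cm2. The means were 13.7 ± 2.61 cm2 in high and 16.9 ± 3.85 cm2 in low livers (SD, n = 30 each), a difference of -3.23 cm2 (SE 0.849, 95% interval -4.9 to -1.57; two-sided permutation p = 0.00031, adjusted p = 0.00279 over 9 measures). A link of both genes to fat area had been seen in these data before the livers were chosen, so this is no independent result.

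EIF1AY, a Y-linked gene, fell into an upper and a lower cluster over the livers, and fat area differed in both. In the upper cluster the difference was -2.39 cm2 (two-sided permutation p = 0.0279, 15 high and 21 low livers). In the lower cluster it was -3.23 cm2 (two-sided exact permutation p = 0.0108, taken as double the smaller tail, while the other p-values for fat area count differences at least as large in size; 15 high and 9 low livers). With the cluster as a term it was -2.72 cm2 (permutation p = 0.00098, labels permuted within clusters), and with the title block as a term -2.33 cm2 (permutation p = 0.0114, permuted within blocks). Of 5 title blocks with at least 2 livers of each tail, 4 had the smaller fat area in high livers, and the differences ran from -4.69 to 0.537 cm2. Blocks that held 1 tail only took in 5 high and 8 low livers. With 15 livers per tail the difference was -3.36 cm2 and no longer passed (adjusted p = 0.0531).

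**Figure D5:**
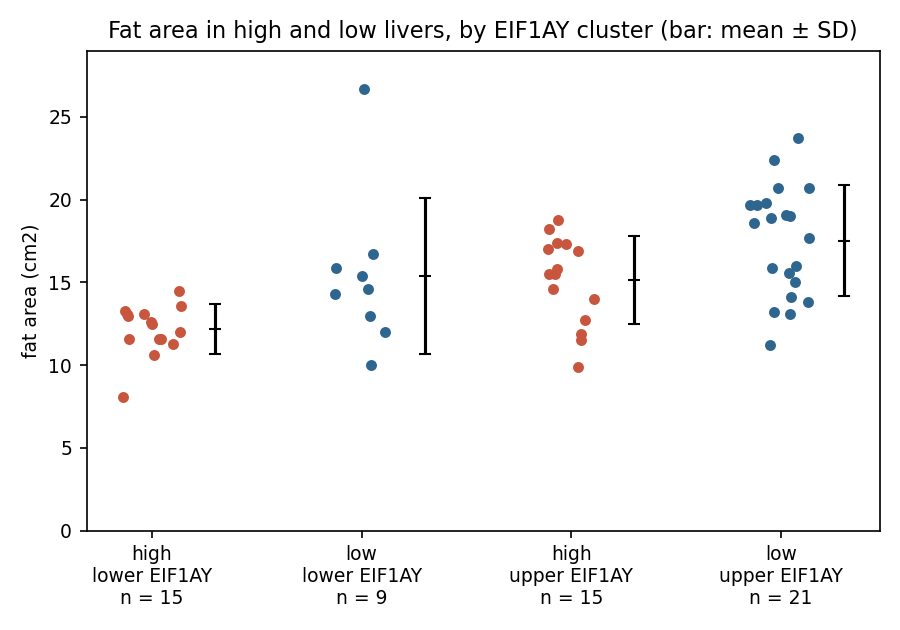
Fat area in cm2 (vertical axis) of pigs with high and low livers, by EIF1AY cluster, 1 point per pig, with the mean ± SD beside each group. In both clusters the mean of the high livers is lower, 12.2 against 15.4 cm2 in the lower and 15.1 against 17.5 cm2 in the upper cluster, with wide overlap.

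In the 90 middle livers fat area and the score were not shown to be related. Pearson's r was -0.108 (permutation p = 0.313, adjusted 0.626) and Spearman's rho -0.153 (permutation p = 0.15, adjusted 0.3), with 2 traits tested. Without the 2 pigs farthest from the median score r was -0.0769. Drip loss averaged 5.74 ± 2.15% in high and 5.62 ± 2.17% in low livers (SD, n = 30 each), a difference of 0.12 (95% interval -0.973 to 1.21; adjusted p = 0.989).

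The upper EIF1AY cluster held 15 of 30 high and 21 of 30 low livers (Fisher's exact test, two-sided, p = 0.187). No probe set passed the limma test of whether the difference between high and low livers itself differed between the clusters. The smallest adjusted p was 0.129, and 2916 of the 23997 probe sets, a share above 0.05, had an unadjusted p under 0.05. With 9 low livers in the lower cluster, the lack of calls does not show that the difference was the same in both.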

How the data were processed

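Liver RNA of 150 pigs was measured on 1 array each. The values deposited by the authors are 1 log2 number per probe set and array; that they are log2 was read from the values, whose floor is 4.09. GCOS 1.1.1 is named per the submitters' processing notes, and the sources used here do not give the summary method or the normalization. The array medians ran from 5.79 to 6.09. Of 24123 probe sets 124 controls were left out, as were the 1 of PLIN2 and the 1 of CPT1A; 10069 had 1 symbol from the array's annotation, 198 several and 13732 none. No 2 arrays correlated above 0.9894, so none was taken for a copy. Nothing says how pigs relate to litters, and the tests treated each pig as independent. If pigs shared a litter or slaughter day, the p-values may be too small.

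High and low livers were compared in R 4.3.3 by limma 3.58.1, two-sided, with no covariate and with a trend in eBayes, and traits by permutation of 100000 resamples, or, with under 10 livers in a group, an exact permutation test that doubles the smaller tail, in Python 3.11.15 with scipy 1.17.1. The script was tested on simulated data. A gene counts once, by its probe set of smallest p, which favours calls. Named are the 12 called genes furthest up and down, up to 4 called members of each list and the fasting panel; others named were chosen after their values were seen. The members and lists were chosen with earlier results of these data known. The alternatives were 2 normalizations, filters on dim or flat probe sets, other eBayes settings, a Wilcoxon test, 15 or 50 livers per tail, tails by 1 gene, the slope over all livers, the arrays that stand apart left out, covariates and stricter thresholds. Replacing each score gene by its brightest probe set changes nothing, since each has 1. No paired analysis was possible because the labels give 1 group and no replicate numbers. No coordinates or sequences are given because no genome was used here.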

Additional observations from a re-analysis of the deposited data

How the results depend on the processing

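The 2383 calls between high and low livers became 1575 with 15 livers per tail, 1273 with the title block, 1506 with fat area and drip loss as covariates, 1269 at an adjusted p under 0.01 and 351 with a log2 difference above 0.5 added. Of them 1226, 1194 and 1413 were among the 2383 in the first 3 cases. The other 15 alternatives gave 1845 to 3532 calls. In the middle livers 0.85% of probe sets passed, and 0.554% with quantile normalization. Fat area differed by -3.36 cm2 with 15 livers per tail (adjusted p = 0.0531), and in the title block and EIF1AY cluster fits, chosen after seeing the data, by -2.33 and -2.72 cm2. Fewer livers, or more terms, also lower what a test can call; the cause of each change was otherwise not tested.

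Over 18 fits and the named genes, 1543 of 1704 values kept their direction and call, 12 gained a call, 6 changed sign and the rest kept the direction and lost the call. None of the 6 was a called gene: CPT2 turned to -0.008 with 15 livers per tail, -0.01 with 50, -0.042 with tails by CPT1A alone and -0.006 without the arrays that stand apart, ACADM to 0.134 with CPT1A alone and PPARGC1A to 0.004 with 15 livers per tail. Of the 88 called named genes 47 passed in every fit. With 15 livers per tail the differences in drip loss, title number, array median, share at the floor and median correlation turned to -0.643, 31, 0.008, -0.0414 and -0.000751. The median correlation was -0.000833 with 50 livers per tail, and the title number 0.0357 without the arrays that stand apart. No paired analysis was possible because the labels give no replicate numbers. The brightest-probe alternative was not run, as each score gene has 1 probe set. Signals near the floor understate differences, and the number of arrays limits the precision.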
